A study of Homo sapiens with 10 samples.

Results

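The 10 genes described here are 9 keratins and TP63, taken by symbol from a table of 28265 gene symbols. KRT8, KRT18, KRT19, KRT7 and KRT23 are keratins of simple, single-layered epithelia, and KRT5, KRT14, KRT15 and KRT17 are keratins of basal cells. TP63 codes for the transcription factor p63, which marks basal cells of stratified epithelia and of the airway. Members were taken by symbol with no threshold on a measured value, but the list was drawn up with earlier results of these data known. All 10 symbols were found.

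RNA-seq counts were available for 10 bulk libraries of cells from human thyroid organoids, with 2 libraries at each of days 16, 23, 31, 38 and 45. Each library held the RNA of 10000 live NKX2-1 GFP+ cells sorted from dissociated organoids. All libraries came from 1 human embryonic stem cell line, ESIBIe003-A-6, in which GFP replaces part of 1 NKX2-1 allele and doxycycline switches on NKX2-1 and PAX8 transgenes. All cultures had passed through activin A, to form endoderm, and then a transient doxycycline pulse before the days studied. The sample titles name c-AMP on days 16, 23 and 31, TSH with DEX (dexamethasone) on day 38, and TSH with SB (SB431542, an inhibitor of TGFβ receptors) on day 45. In the study's methods 8-br-cAMP was added only from day 16, after basal medium, dexamethasone stayed in the medium on day 45, and wells were pooled for each sample. The titles give the same medium on days 23 and 31. The study's text, unlike the titles, places the switch from cAMP to TSH and dexamethasone shortly before day 31. The step from day 23 to day 31 may therefore also span a change of medium. By the study's methods 8-br-cAMP came in between days 16 and 23. By the titles the medium changed at the steps to days 38 and 45. On the schedule of the study's text, days 31 and 38 may share TSH and dexamethasone. That text also gives more than 1 start for SB431542, so day 38 may already hold it. Wherever the medium changed with the day, the effect of time and that of the medium cannot be told apart. Cyclic AMP controls of the last 2 days were not analysed here.

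Keratins are the intermediate filaments of epithelial cells. A filament is built from pairs of a type I keratin (KRT14, KRT15, KRT17, KRT18, KRT19 and KRT23) and a type II keratin (KRT5, KRT7 and KRT8). KRT8 with KRT18 is the usual pair of simple epithelia, follicular cells of the thyroid among them, and KRT5 with KRT14 is the usual pair of basal cells, in which p63 is a known regulator. Filaments are tied to neighboring cells by desmosomes and to the basement membrane by hemidesmosomes.

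Library totals ran from 7247268 to 10333933 counts. Levels are given as CPM, counts relative to the library total, scaled with TMM factors, and 3 counts, the smallest value treated as more than a count of 0 allows, correspond to 0.307 to 0.435 CPM. Levels of different genes are compared only after division by the length of the canonical transcript (CPM per kb). The defining markers of the thyroid were present on every day. NKX2-1 had daily means from 62.4 to 154 CPM and PAX8 from 503 to 650 CPM, and TG, the precursor of thyroid hormone, had daily means of 11.2, 192, 206, 5210 and 7740 CPM from day 16 to day 45. The 10 genes were tested among 21014 genes that reached 5 counts in 2 or more libraries, and a gene is called when its Benjamini-Hochberg adjusted p from edgeR is under 0.05. All 10 passed that filter, but KRT5, KRT7, KRT14, KRT17 and KRT23 passed it only through the days on which they were high.

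The 9 keratins lie in the 2 keratin gene clusters, on chromosomes 12 and 17. In GRCh38, KRT5 is at chr12:52514575-52520530 and KRT8 at chr12:52897187-52949954, both on the minus strand, and KRT18 is next to KRT8 at chr12:52948871-52952906 on the plus strand. KRT8 and KRT18 share 525 exon bases at their 5′ ends on opposite strands, 7.63% of the exon bases of KRT8 and 17.1% of those of KRT18. Whether the counting used strand was not stated, so reads of this stretch cannot be assigned to 1 of the pair. KRT17 is at chr17:41619442-41624842, KRT14 at chr17:41582279-41586895 and KRT19 at chr17:41523617-41528308, all on the minus strand. Near-identical copies are a second limit. Leaving out genes that overlap a member by position, 39.2% of all 50-base stretches of the canonical transcript were also found in transcripts of other genes for KRT8, 35.3% for KRT18, 24.2% for KRT14 (mostly KRT16 and its relatives) and 17.4% for KRT17, against 4.52% for KRT5 and 0 for TP63. Counts of KRT8, KRT18, KRT14 and KRT17 are therefore uncertain to the extent that reads were split among copies.

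The 250 bases before the start site are shown for KRT5, the basal type II keratin whose RNA appeared during the series, and for TP63, the gene of the factor. RefSeq promoter sequences (GRCh38.p14) were matched for 3 of the 10 genes, TP63, KRT5 and KRT8, and both starts shown are those of the canonical transcript. Capitals mark a match to the p53 family half-site, a short sequence of the kind bound by p53, p63 and p73, which reads the same on both strands. The first sequence is chr12:52520395-52520644 on the minus strand and the second is chr3:189631139-189631388 on the plus strand.
KRT5: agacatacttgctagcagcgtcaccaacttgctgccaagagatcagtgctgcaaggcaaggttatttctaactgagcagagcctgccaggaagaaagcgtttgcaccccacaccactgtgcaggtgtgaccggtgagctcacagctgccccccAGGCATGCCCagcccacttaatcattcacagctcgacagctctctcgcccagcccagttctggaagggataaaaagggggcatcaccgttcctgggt
TP63: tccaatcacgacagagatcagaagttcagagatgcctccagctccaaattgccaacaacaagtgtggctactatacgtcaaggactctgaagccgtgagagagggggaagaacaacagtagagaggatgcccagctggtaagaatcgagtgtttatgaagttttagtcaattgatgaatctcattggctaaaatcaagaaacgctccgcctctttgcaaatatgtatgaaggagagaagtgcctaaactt
The KRT5 window held 1 match, which begins 97 bases before the start, and the TP63 window held none. The window of KRT8, whose listed start lies 21393 bases from that of the canonical transcript, also held 1. Of 35116 promoter windows of the same length, 5.57% hold the half-site. Neither window shown held TATAAA (10.7% of promoters) or TGANTCA (6.57%), searched on both strands. These matches are a description of the letters and do not show binding.

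KRT8 was the most abundant of the 10 genes per kb on every day and fell in the later days. Its levels were 806 and 813 CPM on day 16, 697 and 632 on day 23, 475 and 529 on day 31, 380 and 341 on day 38, and 428 and 436 on day 45. The libraries of neighboring days did not overlap at any step, and day 38 was the lowest. The steps to days 23 and 31 were log2 fold changes of -0.29 and -0.40, and neither was called (adjusted p = 0.0566 by edgeR for the latter). The former was called by DESeq2 (adjusted p = 0.0191). The latter was called by DESeq2 (adjusted p = 0.00132), without the low-count filter (adjusted p = 0.0277), with the replicate number as a block (adjusted p = 0.0322) and with only the 4 libraries compared (adjusted p = 0.0241). Between days 31 and 38 KRT8 fell by 0.48 on the log2 scale (SE 0.116, adjusted p = 0.00318 by edgeR). This call was lost without day 31 replicate 2 (adjusted p = 0.0644) or without day 38 replicate 2 (adjusted p = 0.0935). The step to day 45, a log2 fold change of 0.26, was called by DESeq2 (adjusted p = 0.0112) and not by edgeR. From day 16 to day 45 KRT8 fell by 0.91 (adjusted p = 1.51e-07 by edgeR).

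KRT18, the type I partner of KRT8, was also lowest on day 38. Its levels were 430 and 459 CPM on day 16, 377 and 352 on day 23, 293 and 331 on day 31, 156 and 142 on day 38, and 186 and 203 on day 45. All day 38 libraries were below all others. KRT18 fell by 1.07 on the log2 scale between days 31 and 38 (SE 0.127, adjusted p = 7.67e-08 by edgeR). It then rose by 0.38 to day 45 (SE 0.127, adjusted p = 0.0453 by edgeR), a call that was lost when any 1 of the 4 libraries was left out (adjusted p of 0.0021 to 0.377 over all alternatives). On day 45 it was still lower than on day 16 (log2 fold change -1.19, adjusted p = 3e-09 by edgeR).

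KRT19, a type I keratin that has no tail domain and is found in many simple and ductal epithelia, followed another course. Its levels were 198 and 205 CPM on day 16, 187 and 148 on day 23, 184 and 217 on day 31, 251 and 205 on day 38, and 143 and 120 on day 45. The libraries of days 31 and 38 overlapped, and both day 45 libraries were below all others. The step from day 31 to day 38 was 0.19 on the log2 scale (adjusted p = 0.465 by edgeR), a sign that turned with library sizes without TMM factors (-0.03). Between days 38 and 45 KRT19 fell by 0.79 (SE 0.149, adjusted p = 0.000231 by edgeR), a call kept under all other scalings, filters and fits but not with a log2 fold change of at least 1 required. Its fall of 0.62 from day 16 to day 45 (adjusted p = 0.00171 by edgeR) was lost without day 45 replicate 2 (adjusted p = 0.0561).

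KRT7, a type II keratin of ductal and glandular epithelia, was at most 1 count per library on days 16 and 23. Its counts were 8 and 3 on day 31, 53 and 18 on day 38, and 64 and 71 on day 45. Both day 45 libraries were above all others, at 8.52 ± 1.09 CPM (SD, n = 2). The ratio of day 45 to day 16 was 135 (95% counting interval 23.8 to 5360, adjusted p = 0.000331 by edgeR), with 1 count in total on day 16. The fitted log2 fold change ran from 5.92 to 9.20 when 1 library was left out, and the call was kept. No single step between neighboring days was called (day 38 against 31, log2 fold change 2.70, adjusted p = 0.089 by edgeR). KRT23, a type I keratin, had counts of 7 and 0 on day 16, 0 and 0 on day 23, 19 and 9 on day 31, 2 and 6 on day 38, and 21 and 33 on day 45. It was not called at any step or over all days (adjusted p = 0.0627 by edgeR).

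KRT17, a type I keratin of basal cells and of epithelia under stress, had no count on day 16 and became the most abundant basal keratin. It had 0 counts in both day 16 libraries, 6.54 and 2.74 CPM on day 23, 13.3 and 19.7 on day 31, 85.9 and 72.8 on day 38, and 80.7 and 68.7 on day 45. No libraries of neighboring days overlapped until day 38, while those of days 38 and 45 did. Against the floor of 3 counts over the 2 day 16 libraries, day 23 was at least 24.9-fold higher (adjusted p = 1.58e-07 by edgeR). The fitted log2 fold change, 8.328 in the main fit, ran from 7.561 to 8.815 over all alternatives. KRT17 then rose by 1.82 on the log2 scale to day 31 (SE 0.319, adjusted p = 0.000524 by edgeR). That call was lost with only the 4 libraries compared (adjusted p = 0.0804 by edgeR) or without day 23 replicate 2. The log2 fold change of this step ran from 1.329 to 2.577 over all alternatives. The step to day 38 was 2.27 (SE 0.287, adjusted p = 2.68e-07 by edgeR) and was called under every alternative. Day 45 was at least 394-fold higher than day 16 (adjusted p = 7.38e-16 by edgeR) and did not differ from day 38 beyond the spread (log2 fold change -0.09).

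KRT5, the type II keratin of basal cells, appeared between days 23 and 31 and was highest on day 45. Its counts were 1 and 0 on day 16, 0 and 1 on day 23, 39 and 127 on day 31, 109 and 87 on day 38, and 254 and 258 on day 45. In CPM, day 31 held 3.99 and 14.8, day 38 held 11.8 and 10.1, and day 45 held 36.9 and 28.2. The 2 libraries of day 31 differed more than those of the later days, and both day 38 values lay between them. The ratio of day 31 to day 23 was 161 (95% counting interval 28.4 to 6380, adjusted p = 2.58e-06 by edgeR), and that of day 45 to day 16 was 511 (95% counting interval 91.3 to 20200, adjusted p = 5.1e-10 by edgeR). Both calls were kept when 1 library was left out, but the fitted log2 fold change of day 31 against day 23 then ran from 5.82 (without day 31 replicate 2) to 9.33 (without day 23 replicate 2, which held the 1 count of that day), and that of day 45 against day 16 from 7.85 to 11.13. Between days 38 and 45 KRT5 rose by 1.57 on the log2 scale (SE 0.489, adjusted p = 0.0309 by edgeR), a call that was lost when any 1 of the 4 libraries was left out (highest adjusted p 0.251). The step from day 31 to day 38, 0.23, changed sign without day 31 replicate 1 (-0.43).

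KRT14, the usual type I partner of KRT5, was below it, with 4.35 and 1.54 CPM per kb on day 45 against 16.5 and 12.6 CPM per kb for KRT5. Its counts were 0 in all 4 libraries of days 16 and 23, 0 and 2 on day 31, 33 and 21 on day 38, and 49 and 23 on day 45. The libraries of days 38 and 45 were all above those of the earlier days and overlapped each other. Day 38 stood at 27.8 times day 31 (95% counting interval 7.33 to 235). The fitted log2 fold change of this step ran from 3.61 to 7.696 over all alternatives. KRT14 was not called at this step (adjusted p = 0.0624 by edgeR). It was called there with DESeq2, without the low-count filter, with a filter at 5 CPM and with only the 4 libraries compared. Day 45 was at least 23.9-fold higher than day 16 (adjusted p = 0.00455 by edgeR), a call lost without day 45 replicate 1 (adjusted p = 0.0512). KRT15, a type I keratin of basal and progenitor cells, was found on every day, with counts of 78 and 40, 36 and 11, 72 and 55, 20 and 37, and 20 and 23 from day 16 to day 45. It was not called at any step or over all days (adjusted p = 0.171 by edgeR).

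TP63 was found on every day and was highest on day 16. Its levels were 15.2 and 10.6 CPM on day 16, 2 and 4.23 on day 23, 4.09 and 6.98 on day 31, 9.29 and 7.45 on day 38, and 7.40 and 10.5 on day 45. KRT17 and KRT14 had no count on that day, and TP63 was lowest on average on day 23. TP63 fell by 2.05 on the log2 scale between days 16 and 23 (SE 0.546, adjusted p = 0.0104 by edgeR). The call was lost without day 16 replicate 1 or without day 23 replicate 1 (range of the adjusted p over all alternatives 0.00322 to 0.141). No later step was called, with log2 fold changes of 0.83, 0.60 and 0.10, and day 45 against day 16 was -0.52. The counts are per gene, so the long and the short forms of p63 were not separated.

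The 10 genes were called unevenly among the comparisons, which share libraries of the same day. Between days 16 and 23, KRT17 was higher and TP63 lower, where 10.9% of all tested genes were called (5.6% higher and 5.33% lower). Between days 23 and 31, KRT5 and KRT17 were higher and none was lower, where 2.25% of all tested genes were called (1.58% higher and 0.666% lower). Between days 31 and 38, KRT17 was higher and 2 were lower, against 15.0% of all tested genes (8.8% higher and 6.23% lower). Between days 38 and 45, KRT5 and KRT18 were higher and KRT19 lower, against 11.2% of all tested genes (4.85% higher and 6.35% lower). Day 45 against day 16 gave 4 higher (KRT5, KRT7, KRT14 and KRT17) and 3 lower (KRT8, KRT18 and KRT19), against 24.6% of all tested genes (12.9% higher and 11.7% lower). Over all days 8 of 10 were called, against 36.3% of all tested genes. By group, 3 of 5 basal genes and 1 of 5 simple keratins were higher on day 45 than on day 16, and 3 of 5 simple keratins and no basal gene were lower. KRT5, KRT7, KRT14 and KRT17 had at most 1 count in total on day 16 and could not be called lower than that day. They passed the filter only through the days on which they were high. These counts are therefore not a test against the shares or between the groups.

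**Figure D1:**
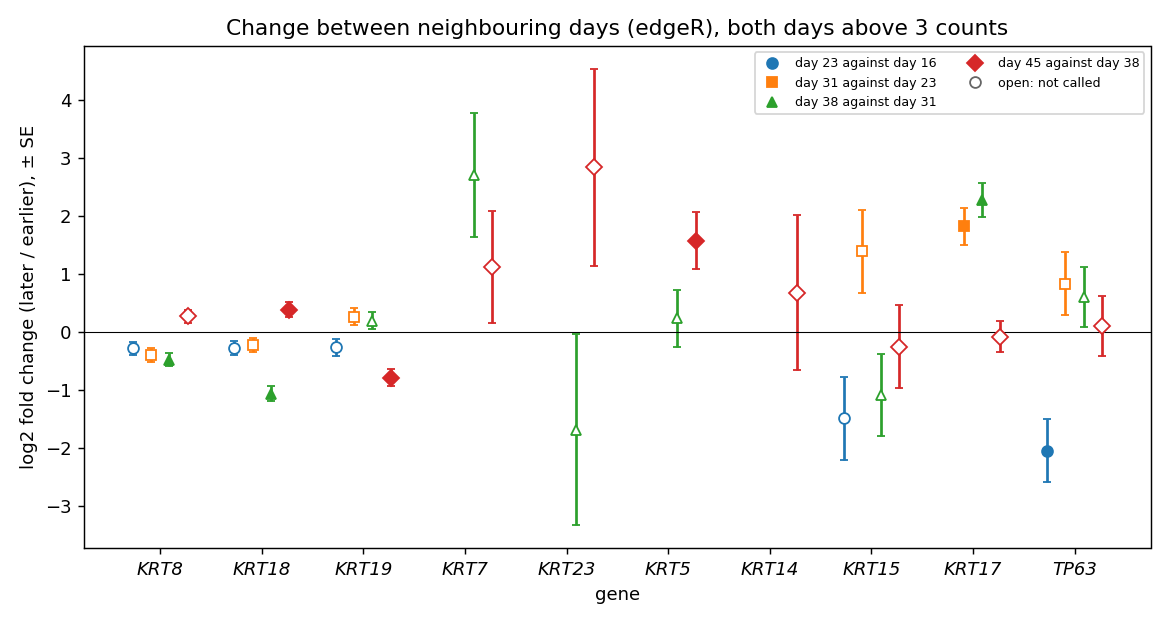
Log2 fold change of the later over the earlier day (vertical axis, bars are ± SE) for each gene (horizontal axis) and each step between neighboring days (color and shape), filled where called and open where not. Steps with 3 counts or fewer on either day are left out; KRT17 rose by 2.27 while KRT18 fell by 1.07 between days 31 and 38.

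Per kb, the summed level of the 9 keratins was lower on the later days and the basal share higher, as a description without a test. Their summed level was 905 and 931 CPM per kb on day 16, 799 and 712 on day 23, 622 and 711 on day 31, 573 and 497 on day 38, and 557 and 542 on day 45. KRT5, KRT14, KRT15 and KRT17 together made up 0.645% and 0.309% of this sum on day 16, 0.832% and 0.364% on day 23, 2.39% and 3.3% on day 31, 11.4% and 11.4% on day 38, and 13.6% and 11.2% on day 45. The share was higher in all libraries of days 38 and 45 than in all libraries of earlier days. On day 45 most of it was KRT17, with 9.55% and 8.36% of the keratin sum, and KRT5 made up 2.96% and 2.32%. Simple keratins thus remained the larger part of keratin RNA in all 10 libraries. In bulk samples, fewer cells of a type and less RNA per cell cannot be told apart.

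**Figure D2:**
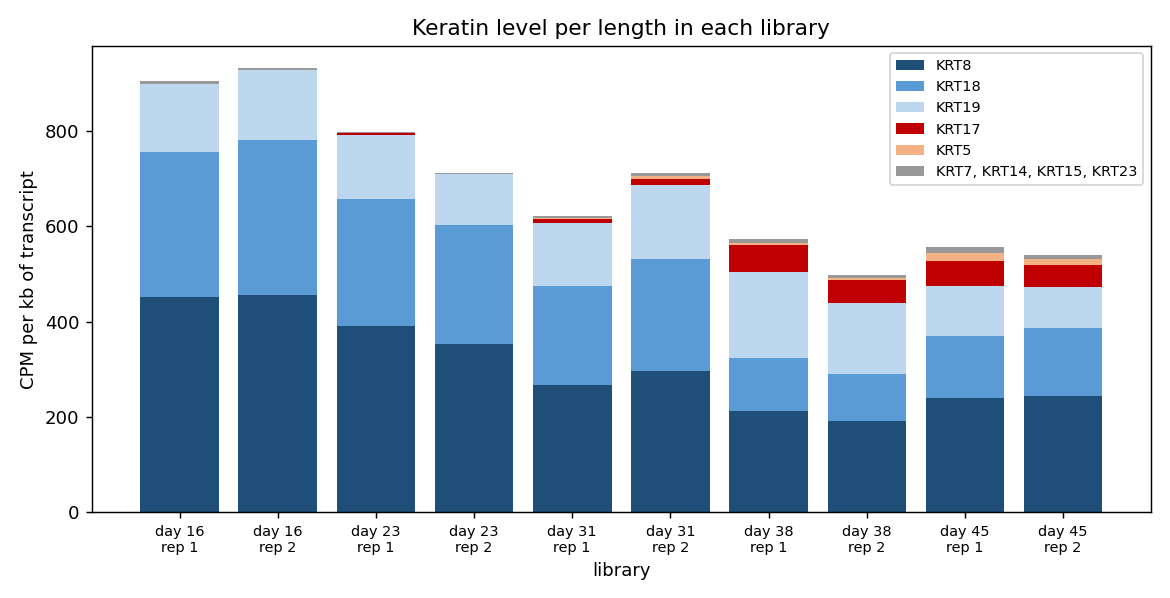
Level per length of the keratins (vertical axis, CPM per kb of canonical transcript) in each library (horizontal axis, day and replicate), stacked by gene. The whole bar went from 905 and 931 on day 16 to 557 and 542 on day 45, with KRT17 and KRT5 (red and orange) visible from day 31.

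The order of the genes per kb changed little at the top. KRT8, KRT18 and KRT19 held the first 3 places, in that order, on days 16, 23, 31 and 45, and neighbors among them did not overlap. On day 38 KRT19, at 180 and 148 CPM per kb, lay above KRT18, at 111 and 100 CPM per kb. The ratio of KRT19 to KRT18 per kb was 0.469 and 0.455 on day 16, 0.637 and 0.667 on day 31, 1.63 and 1.47 on day 38, and 0.783 and 0.604 on day 45. KRT17 came next from day 23 on, where it overlapped KRT15, and stood alone in that place from day 31. KRT5 followed KRT17 from day 31 on, where it overlapped KRT15, and stood alone in that place on days 38 and 45. The places below overlapped in most cases.

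The ratios within pairs varied with the day, as a description without a test. KRT8 to KRT18 per kb was 1.48 and 1.4 on day 16, 1.46 and 1.42 on day 23, 1.29 and 1.27 on day 31, 1.93 and 1.9 on day 38, and 1.83 and 1.7 on day 45. Days 38 and 45 were above the other days in all libraries. KRT17 to KRT5 per kb was 4.92 and 1.96 on day 31, 10.8 and 10.6 on day 38, and 3.23 and 3.6 on day 45. Type I and type II keratins were near balance on day 16, with 453 and 475 CPM per kb of type I and 452 and 456 of type II. On day 38 type I held 351 and 300 CPM per kb and type II 222 and 197, and on day 45 type I held 295 and 280 and type II 262 for both libraries.

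The remaining keratins of the table were largely silent. Of 46 other keratin genes, 15 passed the filter, 23 had at most 3 counts in each library, and 15 of those 23 had 0 counts in all libraries. No keratin pseudogene among 11 exceeded 20 counts in a library. A mean of at least 1 CPM was found for 5 of the 46. KRT13, a type I keratin of suprabasal cells in wet stratified epithelia, had daily means of 0.563, 1.57, 1.75, 4.21 and 18.3 CPM. Its rise of 2.11 between days 38 and 45 (SE 0.624, adjusted p = 0.0217 by edgeR) was lost when any 1 library was left out, and day 45 against day 16 was 4.98 (adjusted p = 3.14e-06 by edgeR). KRT4, the type II partner of KRT13, had 0 counts on days 16 and 23, 9 and 26 on day 31, 4 and 0 on day 38, and 55 and 21 on day 45, at least 25.3-fold above day 16 (adjusted p = 0.00706 by edgeR, lost without either day 16 library or without day 45 replicate 1).

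KRT6A, a type II keratin of stressed and wounded epithelium, had at most 3 counts in any library to day 31, 74 and 55 on day 38, and 30 and 32 on day 45. The ratio of day 38 to day 31 was 44.2 (95% counting interval 14.8 to 217, adjusted p = 0.00541 by edgeR). That call was lost without day 31 replicate 1 (adjusted p = 0.0709) or without day 38 replicate 1 (adjusted p = 0.0876), and 39.2% of its 50-base stretches are shared with other genes, mostly KRT6C and KRT6B. KRT20, a type I keratin of intestinal and urothelial surface cells, had 15 and 86 counts on day 45, and 2 and 0 on day 38. The ratio was 56.2 (95% counting interval 15.2 to 470, adjusted p = 0.0484 by edgeR), a call lost when any 1 library was left out and with edgeR's filterByExpr (adjusted p = 0.059). The call of KRT20 on day 45 against day 16 was lost without either day 16 library, without day 45 replicate 2, with library sizes without TMM factors (adjusted p = 0.0501) and with filterByExpr (adjusted p = 0.0513). KRT10, a type I keratin of suprabasal epidermis, went from 6.35 to 14.3 CPM between days 16 and 45 and was not called over all days (adjusted p = 0.0531 by edgeR). KRT1, its usual type II partner, had 0 counts in all libraries. Over the 15 tested, 0 were higher or lower by edgeR at the first 2 steps, where 10.9% and 2.25% of all tested genes were called. At these steps 0 and 2 of the 15 had an unadjusted p under 0.05, and DESeq2 called 0 and 1 (KRT4). KRT6A and KRT78, the latter named only for this count, were higher at the step to day 38 (8.8% of all tested genes). KRT13 and KRT20 were higher at the step to day 45 (4.85%), and KRT4, KRT6A, KRT13 and KRT20 on day 45 against day 16 (12.9%). KRT4 and KRT6A passed the filter only through the days on which they were high. These counts are therefore not a test against the shares.

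Hemidesmosome and anchoring genes tie keratin filaments to the basement membrane. Of 9, 3 were higher on day 23 than on day 16, where 5.6% of all tested genes were higher. On day 45 against day 16, 6 were higher and 2 lower (median log2 fold change 1.08, against 0.00 over all tested genes, of which 12.9% were higher and 11.7% lower). LAMB3, the β3 chain of laminin-332, rose from 1.59 to 20.9 CPM between days 16 and 23 (log2 fold change 3.72, SE 0.479, adjusted p = 6.64e-07 by edgeR). LAMA3, its α3 chain, rose from 10.0 to 29.7 CPM between days 31 and 38 (adjusted p = 0.00161 by edgeR, lost without day 31 replicate 1). ITGA6, the integrin α6 chain that binds laminin-332, fell from 119 to 67.1 CPM between days 38 and 45 (log2 fold change -0.83, adjusted p = 0.000438 by edgeR). DST, a plakin that ties keratins to hemidesmosomes, fell from 646 to 483 CPM at that step (adjusted p = 0.0132 by edgeR, lost without day 38 replicate 2 or day 45 replicate 1). COL17A1, which with ITGB4 defines hemidesmosomes, had daily means of 4.94, 5.19, 6.02, 14.0 and 16.8 CPM from day 16 to day 45. ITGB4 had daily means of 9.47, 10.4, 15.7, 19.2 and 19.5 CPM.

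Of 13 desmosome genes, 4 were higher and 2 lower on day 45 than on day 16 (median 0.33, against 0.00 over all tested genes, of which 12.9% were higher and 11.7% lower). PKP1 and DSG3 had 0 counts on day 16 and passed the filter only through later days, so these counts are not a test against the shares. DSP, desmoplakin, which binds keratins at desmosomes, kept daily means between 811 and 949 CPM. PKP1 had daily means of 0, 0, 0.0582, 3.3 and 7.67 CPM from day 16 to day 45. DSG3 had daily means of 0, 0.617, 2.09, 1.91 and 7.89 CPM. DSC3, a desmocollin of stratified epithelia, went up and down with the days, with means of 9, 20.0, 25.3, 9.52 and 28.1 CPM. Its fall of 1.41 between days 31 and 38 (adjusted p = 0.00278 by edgeR) and its rise of 1.55 between days 38 and 45 (adjusted p = 0.00143 by edgeR) were each lost without day 38 replicate 2, and the rise also without day 45 replicate 1 (adjusted p = 0.0585). PPL, periplakin, rose from 77.7 to 136 CPM to day 31 (adjusted p = 0.00605 by edgeR, lost without day 31 replicate 1, day 23 replicate 1 or day 23 replicate 2) and fell to 74.8 CPM on day 38 (log2 fold change -0.86, adjusted p = 0.000501 by edgeR).

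Of 16 transcription factors of epithelia, 6 were higher and 0 lower on day 45 than on day 16 (median 0.44, against 0.00 over all tested genes, of which 12.9% were higher and 11.7% lower). KLF4, a factor of differentiating epithelium, fell from 92.3 to 15.6 CPM between days 16 and 23 (log2 fold change -2.56, adjusted p = 8.4e-11 by edgeR) and rose from 19.2 to 121 CPM between days 38 and 45 (log2 fold change 2.65, adjusted p = 4.14e-11 by edgeR). EHF, an ETS factor of glandular epithelia, rose from 0.458 to 18.6 CPM between days 31 and 38 (log2 fold change 5.35, SE 0.789, adjusted p = 4.04e-06 by edgeR). OVOL1 rose from 11.2 to 37.5 CPM between days 38 and 45 (adjusted p = 0.00494 by edgeR, lost without replicate 1 of either day). ELF3 rose from 28.5 to 65.2 CPM between days 23 and 31 (adjusted p = 0.000974 by edgeR, lost without day 23 replicate 1). SOX2, a factor of the anterior foregut and of airway basal cells, rose between days 23 and 31 and fell between days 38 and 45, and both calls were lost when any 1 library was left out. The epithelial genes CDH1 and EPCAM had daily means of 523 to 695 CPM and 264 to 380 CPM, and of 11 simple epithelium genes 4 were higher and 0 lower on day 45 than on day 16 (median 0.31), against the same shares.

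Of 16 other intermediate filament genes, 2 were higher and 3 lower on day 45 than on day 16, against 24.6% of all tested genes called. VIM, vimentin, the filament of mesenchymal cells, had daily means of 1790, 673, 644, 2160 and 1900 CPM. DES, desmin, the filament of muscle, rose from 7.66 to 53.7 CPM between days 31 and 38 (log2 fold change 2.81, adjusted p = 3.83e-08 by edgeR). LMNA, lamin A/C, rose from 95.6 to 241 CPM between days 38 and 45 (log2 fold change 1.34, adjusted p = 1.41e-06 by edgeR), and LMNB1, lamin B1, fell from 58.7 to 31 CPM at the same step (log2 fold change -0.92, adjusted p = 0.00148 by edgeR).

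The summed levels of fibroblast and of cardiovascular markers were higher on day 38 than on day 31, the step at which KRT17 rose most in CPM. The summed level of 8 fibroblast markers was 919 and 1139 CPM on day 16, 1462 and 1730 on day 31, 4236 and 4462 on day 38, and 4463 and 3573 on day 45. COL3A1 gave the most counts of the list in all libraries, with no division by length, and TCF21 had 0 counts on day 16. Between days 31 and 38, 4 of the 8 were higher and 1 was lower, where 8.8% of all tested genes were higher and 6.23% lower, with COL1A2 up by 2.67 and COL1A1 by 1.75 on the log2 scale (adjusted p = 2.63e-16 and 1.22e-12 by edgeR). The summed level of 8 cardiovascular markers was 41.4 and 27.5 CPM on day 31 and 168 and 166 CPM on day 38. MYH6, a heart myosin with a long transcript, gave the most counts of the list on day 38, at 97.9 and 87.1 CPM. Of these, 4 were higher and 0 lower at that step, against the same shares of all tested genes. PECAM1 had 0 counts to day 31 and passed the filter only through later days, so these counts are not a test against the shares. The part of these cells or their RNA in the keratin results was not tested.

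Among 11 airway basal markers, 10 were tested, and 5 were higher and 1 lower on day 45 than on day 16 (median 1.13, against 0.00 over all tested genes, of which 12.9% were higher and 11.7% lower). TRIM29 and IL33 had 0 counts on day 16 and passed the filter only through later days, so these counts are not a test against the shares. Between days 31 and 38, 4 were higher and 1 was lower, against 8.8% and 6.23% of all tested genes. IL33, an alarmin of basal cells, rose from 0.949 to 11.7 CPM (log2 fold change 3.58, adjusted p = 0.00323 by edgeR, lost without day 31 replicate 2). CAV1 rose from 4.21 to 17.3 CPM (adjusted p = 0.0223 by edgeR), and that call was lost with DESeq2 and when any 1 library was left out. BNC1, a zinc finger factor of basal keratinocytes, fell from 36.4 to 0.948 CPM (log2 fold change -5.24, SE 0.464, adjusted p = 1e-10 by edgeR). S100A2 and NGFR, both used to define basal cells, had daily means of 0.443 to 1.43 CPM and 1.3 to 5.3 CPM. Unlike BNC1, TRIM29 of the same list was higher on days 38 and 45 than before, with daily means of 0, 7.11, 5.24, 19.7 and 24.9 CPM. By edgeR it was called higher on day 23 than on day 16, where it had 0 counts, and on day 38 than on day 31. Whether other fits kept these 2 calls is not given here. CCN1, which is not particular to basal cells, gave the most counts of the list in all libraries, and the summed level of the list ran from 286 CPM on day 31 to 531 CPM on day 16. The list itself therefore mixed genes with opposite courses.

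Of 10 goblet and secretory markers, 5 were higher and 0 lower on day 45 than on day 16 (median log2 fold change 3.08, against 0.00 over all tested genes, of which 12.9% were higher and 11.7% lower). MUC5AC and TFF3 had 0 counts on day 16 and passed the filter only through later days, so these counts are not a test against the shares. The summed levels below have no division by length. Their summed level was 15.2 and 16.9 CPM on day 23, 168 and 151 on day 31, 93.6 and 68.0 on day 38, and 189 and 149 on day 45. AGR2, a chaperone of mucus cells, rose from 10.2 to 145 CPM between days 23 and 31 (log2 fold change 3.84, SE 0.277, adjusted p = 3.78e-11 by edgeR), the step at which KRT5 appeared, and fell to 32.2 CPM on day 38 (adjusted p = 3.92e-08 by edgeR). MUC5AC, a secreted mucin, rose from 1.17 to 25.8 CPM between days 31 and 38 and was back at 1.26 CPM on day 45 (adjusted p = 2.8e-05 and 6.24e-05 by edgeR). MUC5B, the other main airway mucin, rose from 15.1 to 72.0 CPM between days 38 and 45 (adjusted p = 0.000526 by edgeR, lost with DESeq2 and without day 45 replicate 1). SCGB1A1 had daily means from 0 to 0.698 CPM. Of 7 ciliated cell markers, 0 were higher and 2 lower on day 45 than on day 16 (median -1.08), against the same shares of all tested genes, and FOXJ1 fell from 20.4 to 5.94 CPM between days 31 and 38 (log2 fold change -1.78, adjusted p = 0.000995 by edgeR).

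Genes of squamous differentiation had low levels. Of 13, 6 were tested and 0 were called by edgeR in any of the 5 comparisons, 0 had an unadjusted p under 0.05 and DESeq2 called 0. Of all tested genes, edgeR called between 2.25% (day 31 against 23) and 24.6% (day 45 against 16) in these comparisons. FLG, LORICRIN and SPRR1A, which define cornified cells, had 0 counts in all libraries, which allows up to 0.435 CPM in a library. The summed level of the 13 ran from 2.21 CPM on day 38 to 12.6 CPM on day 45. TGM1, a transglutaminase, had a mean of 4.11 CPM on day 16, and SFN, stratifin, of 4.07 CPM on day 45. The median log2 fold change of the 6 on day 45 against day 38 was 1.99, against -0.02 over all tested genes. KRT1 and KRT2, the type II keratins of cornifying epidermis, also had 0 counts in all libraries.

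**Figure D3:**
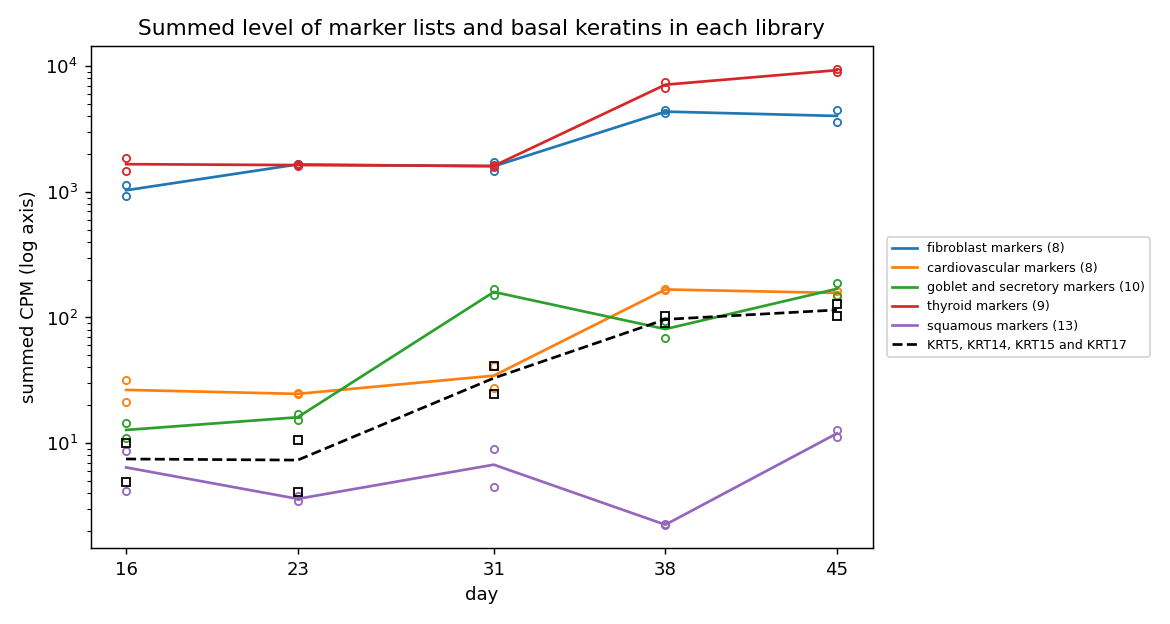
Summed CPM of each marker list and of the 4 basal keratins (vertical axis, log scale) against day (horizontal axis); points are libraries and lines daily means. The summed levels of fibroblast, cardiovascular and thyroid markers and of the basal keratins (dashed) were higher on days 38 and 45 than on day 31, the thyroid sum through TG, while NKX2-1, HHEX and FOXE1 were lower on day 45 than on day 31, and the squamous markers stayed at or under 12.6 CPM.

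The genes whose profile was most like that of a member are given as a description over the 10 libraries, among 13115 genes with a mean of at least 5 CPM. The libraries share days and media, so a high correlation needs only a common course over 5 days. For KRT17 they were NFIA (Pearson r of log2 CPM 0.995), CTSB (0.993) and WARS1 (0.99). CTSB, the lysosomal protease cathepsin B, had daily means of 126, 424, 542, 1130 and 1070 CPM. For KRT5, BCL3 (0.976) and FILIP1L (0.973) are given. For KRT8 they were LGR4 (0.978), ZDHHC23 (0.964) and KRT18 (0.961), and for KRT18 NASP (0.995), a histone chaperone, KIF13B (0.986) and NAALAD2 (0.975). For KRT19 they were H3C4 (0.932), a histone gene, BEND5 (0.915) and NIPSNAP1 (0.91), and for TP63 MAP3K21 (0.942), THSD4 (0.941) and PTH1R (0.929). KRT18 was among the genes nearest to KRT8, and TP63 had r of 0.25 with KRT5 and -0.16 with KRT17.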

How the data were processed

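The authors trimmed reads with Trimmomatic, aligned them to GRCh38.p13 with HISAT2 and counted them per gene with HTSeq, as named in the submitters' processing notes. They deposited whole-number counts per gene symbol for each library, with no normalization. The strand setting is not given in the sources used here. Libraries were made with the Ovarion Solo RNA-seq Systems (NuGen), as the labels spell it, from 10000 sorted cells each. The sources used here name no molecular identifiers in the counting, so intervals and floors cover counting error only. Days and replicates came from the sample titles.

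From the counts, the 21014 genes that reached 5 counts in 2 or more libraries were fitted with edgeR 4.0.16 in R 4.3.3 (glmQLFit and glmQLFTest, TMM factors, one mean per day over 10 libraries, 5 residual degrees of freedom), and p-values were adjusted over all tested genes. SE was taken as |log2 fold change| over the root of F and is approximate. Folds use a floor of 3 counts over the 2 libraries of a day. Where a day held 1 to 3 counts, a ratio with its 95% interval is given. Lengths and positions came from GENCODE 44. Replicate counts differed by more than sampling noise (chi-square per degree of freedom 8.38 to 13.7). The study states 2 biological replicates per sample, each drawn from several wells. Whether these came from separate differentiations is not given in the sources used here, so p-values measure the spread between these samples, which may be technical.

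The members and lists were chosen with earlier results of these data known. Genes named from a list were, at each step between neighboring days, at most the 2 highest and 2 lowest log2 fold changes among called genes whose libraries did not overlap and whose mean was at least 5 CPM over the 4 libraries. Other keratins are named from a mean of 1 CPM, and the nearest 3 genes by Pearson r for members with a mean of at least 5 CPM. The half-site was chosen after a looser form of it had been searched. Defining markers, genes at 0 and steady genes named beside a list were chosen after their values were seen. DESeq2 1.42.0, other scalings, other filters, a replicate block and fits without each library were tried. Some genes that these rules name are not reported here.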

Additional observations from a re-analysis of the deposited data

How the results depend on the processing

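The number of members called stayed within 1.5 times the main count under DESeq2, upper-quartile factors, library sizes without TMM factors, 3 other filters, only the 4 libraries compared and the replicate block. With a log2 fold change of at least 1 required, members called at day 45 against day 38 went from 3 to 1 (KRT5). Leaving out 1 library gave 1 to 2 members for day 23 against 16, 1 to 2 for day 31 against 23, 2 to 3 for day 38 against 31, 1 for day 45 against 38 (KRT19 alone), 6 to 7 for day 45 against 16, and 7 to 8 over any day. In these fits fewer of all tested genes were called as well, for each pair of days compared. None of the reversed values was called. The log2 fold change of KRT19 at day 38 against 31 was -0.034 without TMM factors, a scaling that moved the median of all genes by -0.20 at that step. When 1 library was left out, KRT5 at day 38 against 31 ran from -0.431 (without day 31 replicate 1) to 1.45. At day 45 against 38, KRT14 ran from -0.257 (without day 45 replicate 1) to 1.24, KRT15 from -0.67 to 0.321 (without day 38 replicate 2), KRT17 from -0.207 to 0.037 (without day 38 replicate 1, and 0.026 without day 45 replicate 2), and TP63 from -0.176 (without day 45 replicate 2, and -0.052 without day 38 replicate 2) to 0.325. The cause of these changes was not tested. Without day 16 replicate 1, KRT23 had 0 counts at both days 16 and 23 and gave no value. Of 89 called changes of other named genes, 42 kept the call under all other scalings, filters and fits and 47 lost it under at least 1, with no minimum fold change applied.

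The replicate numbers do not pair the libraries, since same-numbered libraries of different days had correlations of their deviations between -0.03 and 0.02. With the replicate block, members called were 2 for day 23 against 16, 3 for day 31 against 23 (KRT8 added), 3 for day 38 against 31, 3 for day 45 against 38, 7 for day 45 against 16 and 8 over any day. Over all tested genes the block called 2703, 678, 3472, 2691 and 5460 for these pairs of days. The main fit called 2296, 473, 3160, 2353 and 5175, in the same order.

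With 2 libraries per day, a fit without 1 of them assumes that the lone library varies like the other days. KRT14, KRT15, KRT7 and KRT23 rest on fewer than 100 counts in every library.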
